A study of Mus musculus with 6 samples.

Results

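Natural killer (NK) cells, T cells and B cells are the lymphocytes that a CD11B sort of kidney could carry along with its monocytes and macrophages. The genes described here are 9 genes that mark them, taken by symbol from the 46603 genes counted. Of these, 5 mark NK and other cytotoxic cells (Ncr1, Klrb1c, Nkg7, Gzma and Prf1), 2 mark T cells (Cd3e and Cd3g) and 2 mark B cells (Cd79a and Ms4a1). Each was read in 6 RNA-Seq libraries, 1 per mouse, of CD11B+ cells taken with magnetic beads from digested kidneys on day 3 after bilateral ischemia-reperfusion AKI. In that model, 10- to 12-week-old male mice had both renal pedicles clamped for 28 minutes. The 3 Cre- controls had the genotype PEPCK CRE-; Rosa26-LSL-RARaT403X, and the 3 PTEC DN RAR mice had PEPCK CRE+; Rosa26-LSL-RARaT403X. Both genotypes therefore carried the allele for the truncated, dominant negative RARa behind a stop cassette. The PEPCK-driven Cre removes that cassette in proximal tubular epithelial cells (PTECs), so the modified gene is meant to act in the tubule and not in the sorted cells. No library of uninjured kidney was analysed here. Per the study's methods, the lines came from mixed 129svJ; C57BL/6 and C57BL/6 stocks.

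NK cells kill by releasing perforin and granzymes after the balance of their activating and inhibitory receptors tips, and mouse NK cells gain CD11B as they mature. T cells recognise peptides through an antigen receptor whose signal is carried by the CD3 chains, without which the receptor does not reach the surface. B cells signal through the CD79 chains that hold membrane immunoglobulin, and the B-1 subset also carries CD11B. T cells mostly lack CD11B unless they are activated. In the injured kidney, such lymphocytes are known as a small population beside the myeloid cells.

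In these libraries the 9 genes were low, the T cell genes down to the limit of detection, and none of the 8 that could be tested passed edgeR's quasi-likelihood test of the genotypes at an adjusted p under 0.05. Of all 15440 genes tested, 40.6% passed that threshold. The level of a gene is given as CPM, its counts scaled to the size of the library after TMM. Over 9 genes and 6 libraries the values ran from 0.0424 to 4.90 CPM, or from 2 to 146 reads, and 13 of the 54 values were above 1 CPM. No value was 0, but 4 stood at or under 3 reads, which is 0.0636 to 0.101 CPM at the depth of these libraries. At an unadjusted p under 0.05, 2 of the 8 passed (Cd79a and Ms4a1), against 50.2% of all genes. DESeq2 called 1 member (Cd79a, adjusted p = 0.0417) and limma-voom called 0, where they called 44.2% and 39.9% of all genes. Among the 2851 genes whose mean CPM fell within the range of the members' means, 29.6% were called. For all 9 members the 2 genotypes overlapped, whereas they did not overlap for 53.4% of all genes.

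The libraries held 29318041 to 40741507 gene counts in Cre- controls and 42113139 to 46517005 in PTEC DN RAR mice. Itgam, which encodes CD11B, was at 1737, 1959 and 1995 CPM in Cre- controls and at 1366, 1303 and 980.3 CPM in PTEC DN RAR mice, which was lower (log2 fold change -0.64, SE 0.14, edgeR adjusted p = 0.00818). Ptprc, the CD45 antigen of all leukocytes, did not pass (log2 fold change -0.11, SE 0.13, adjusted p = 0.534). Rara, whose truncated form the transgene encodes, was at 35.3 to 45.4 CPM in Cre- controls and 30.7 to 37.6 CPM in PTEC DN RAR mice (adjusted p = 0.0628), a gene-level count that does not read the transgene apart and so checks no label. Markers of other cells moved with genotype. All 16 proximal tubule markers passed as higher, with a summed level of 1260 to 1535 CPM in Cre- controls and 3311 to 5180 CPM in PTEC DN RAR mice. Of 8 thick ascending limb and distal tubule markers 7, and of 8 endothelial markers all 8, passed as higher. Of 8 monocyte markers 6 passed as lower, with sums of 2451 to 2690 CPM and 1213 to 1383 CPM, as did 5 of 10 neutrophil and 2 of 6 platelet markers. Of 8 resident macrophage markers 1 passed as higher, with sums of 18741 to 23912 CPM and 20794 to 26099 CPM. Of 9 dendritic cell markers 3 passed as higher and 1 as lower, of 9 plasmacytoid dendritic cell markers 2 as higher, and of 8 basophil and mast cell markers 2 as higher and 1 as lower. Of 26 pan-leukocyte genes, 9 passed as lower and none as higher, and mitochondrial transcripts took 5.03% to 8.77% of counts in Cre- controls and 10.4% to 12.1% in PTEC DN RAR mice. The part of these in the results that follow was not tested. In bulk RNA, fewer cells of a type and less RNA per cell cannot be told apart.

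Promoter windows of 3 members are shown, 2 with and 1 without the letters that all NK and cytotoxic members share, and each lies wholly before the annotated transcripts. The RefSeq promoter table on GRCm38.p6, whose own transcription starts were used, held 8 of the 9 members. In each, the 250 bases before the transcription start were searched on both strands for 5 short motifs: the RUNX hexamer TGTGGT, the ETS core AGGAAG, the T-box letters GGTGTGA, the octamer ATGCAAAT and the EBF palindrome, none of which overlaps another in the windows shown. RUNX and ETS factors act in most lymphocytes, T-box factors in NK and cytotoxic T cells, and the octamer and EBF sites in B cells. Capitals mark a match on either strand.
Ncr1, chr7:4337465-4337714, plus strand: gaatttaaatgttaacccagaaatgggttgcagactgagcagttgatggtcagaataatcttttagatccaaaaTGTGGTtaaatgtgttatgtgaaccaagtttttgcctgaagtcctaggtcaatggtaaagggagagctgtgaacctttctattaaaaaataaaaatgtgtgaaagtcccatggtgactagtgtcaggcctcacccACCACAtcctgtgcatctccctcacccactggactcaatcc
Gzma, chr13:113100982-113101231, minus strand: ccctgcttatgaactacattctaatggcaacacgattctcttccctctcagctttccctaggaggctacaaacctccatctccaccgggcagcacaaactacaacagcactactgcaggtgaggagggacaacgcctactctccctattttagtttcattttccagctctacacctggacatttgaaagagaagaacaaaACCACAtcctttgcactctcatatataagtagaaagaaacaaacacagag
Cd3g, chr9:44980432-44980681, minus strand: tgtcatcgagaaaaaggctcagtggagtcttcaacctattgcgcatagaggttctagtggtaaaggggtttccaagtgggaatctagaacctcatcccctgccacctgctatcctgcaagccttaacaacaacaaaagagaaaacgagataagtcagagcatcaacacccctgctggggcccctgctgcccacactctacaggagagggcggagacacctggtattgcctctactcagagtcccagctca
The Ncr1 window held the RUNX letters at 2 places, the Gzma window at 1 place and the Cd3g window at none. All 5 NK and cytotoxic members had them and none of the 3 T and B cell members in the table did, where 14% of all 32851 promoter windows of this length had them. The windows of Klrb1c, Nkg7, Prf1, Cd3e and Cd79a reached into the annotated gene, and that of Klrb1c lay wholly within it. The ETS letters stood in 5 of the 8 windows (Klrb1c, Nkg7, Prf1, Cd3e and Cd79a), against 29.5% of all windows. The T-box letters stood in the Nkg7 window alone among the 8, against 3.33% of all. Neither the octamer (1.60% of all windows) nor the EBF letters (0.779%) stood in any of the 8. A match is a stretch of letters and no measured binding.

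Among the NK receptors, Ncr1 and Klrb1c overlapped between genotypes and did not pass the test. Ncr1 encodes NKp46, an activating receptor found almost only on NK cells and related innate lymphoid cells, and lies at chr7:4337724-4345164 (GRCm38). Its level was 0.410, 0.637 and 0.285 CPM in Cre- controls 1 to 3 and 0.765, 0.165 and 0.127 CPM in PTEC DN RAR mice 1 to 3. These are 16, 19 and 9 reads against 32, 7 and 6. PTEC DN RAR replicate 1 was therefore the highest of the 6 libraries, and replicates 2 and 3 of the same genotype were the lowest. The log2 fold change of PTEC DN RAR over Cre- control was -0.34 (SE 0.68, edgeR adjusted p = 0.715), with a 95% interval from -1.88 to 1.2. Without PTEC DN RAR replicate 1 it was -1.58 (SE 0.55, edgeR adjusted p = 0.0614), and without replicate 3 it was 0.026.

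Klrb1c encodes NK1.1, the antigen by which NK cells are sorted in C57BL/6 mice, and lies at chr6:128778485-128789215. It was at 1.23, 0.973 and 0.539 CPM in Cre- controls and at 0.741, 0.636 and 0.763 CPM in PTEC DN RAR mice. The 3 PTEC DN RAR libraries fell inside the range of the 3 controls, and the highest of them was 1.2 times the lowest, the narrowest spread within a genotype of the 9 genes. On the log2 scale the difference was -0.36 (SE 0.35, adjusted p = 0.438), with an interval from -1.17 to 0.44. An annotated gene model on the same strand, Gm44511, shares 413 bases of exon with it and had no reads. Strains differ at this locus, and the allele carried by each mouse was not given in the sources used here.

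Gzma varied most among the NK members, its highest library being 7.99 times its lowest. It encodes granzyme A, a serine protease of NK and cytotoxic T cells, and lies at chr13:113093825-113100981. It was the most abundant of the 9 genes, at 2.36, 4.90 and 1.17 CPM in Cre- controls and at 2.32, 0.613 and 0.932 CPM in PTEC DN RAR mice. The top control had 146 reads and the bottom PTEC DN RAR library 26. Replicate 1 of PTEC DN RAR stood next to replicate 1 of the controls, and the other two PTEC DN RAR libraries lay below all controls. Over 6 libraries the log2 fold change was -1.12 (SE 0.59, edgeR adjusted p = 0.159, interval -2.46 to 0.22). Without PTEC DN RAR replicate 1 it was -1.85 (SE 0.59, adjusted p = 0.0480), where 31.9% of all genes were called. Without Cre- control replicate 2 it was -0.51 (adjusted p = 0.512).

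Prf1 encodes perforin, the pore protein that lets granzymes into the target cell, and lies at chr10:61297833-61304680. It was at 0.436, 1.27 and 0.317 CPM in Cre- controls and at 1.15, 0.448 and 0.212 CPM in PTEC DN RAR mice. In each genotype 1 library stood above the rest, replicate 2 of the controls and replicate 1 of PTEC DN RAR. The log2 fold change was -0.16 (SE 0.69, adjusted p = 0.871, interval -1.72 to 1.40). It was 0.61 without Cre- control replicate 2 and -1.02 without PTEC DN RAR replicate 1, neither of which passed the test. Nkg7, a granule membrane protein of NK and cytotoxic T cells, lies at chr7:43437073-43438249. It was at 0.717, 0.671 and 0.507 CPM in Cre- controls and at 1.34, 0.566 and 0.360 CPM in PTEC DN RAR mice, so that the latter held both the highest and the lowest library. Its log2 fold change was 0.24 (SE 0.49, adjusted p = 0.716, interval -0.87 to 1.35), and without PTEC DN RAR replicate 1 it was -0.46.

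Summed over the 5 NK and cytotoxic members, the level was 5.15, 8.45 and 2.82 CPM in Cre- controls and 6.31, 2.43 and 2.39 CPM in PTEC DN RAR mice. The ratio of the means, PTEC DN RAR over control, was 0.678, and it was 0.440 without PTEC DN RAR replicate 1. Control replicates 2 and 3 alone lay further apart than that, so the difference in means was within the spread of a genotype.

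**Figure D1:**
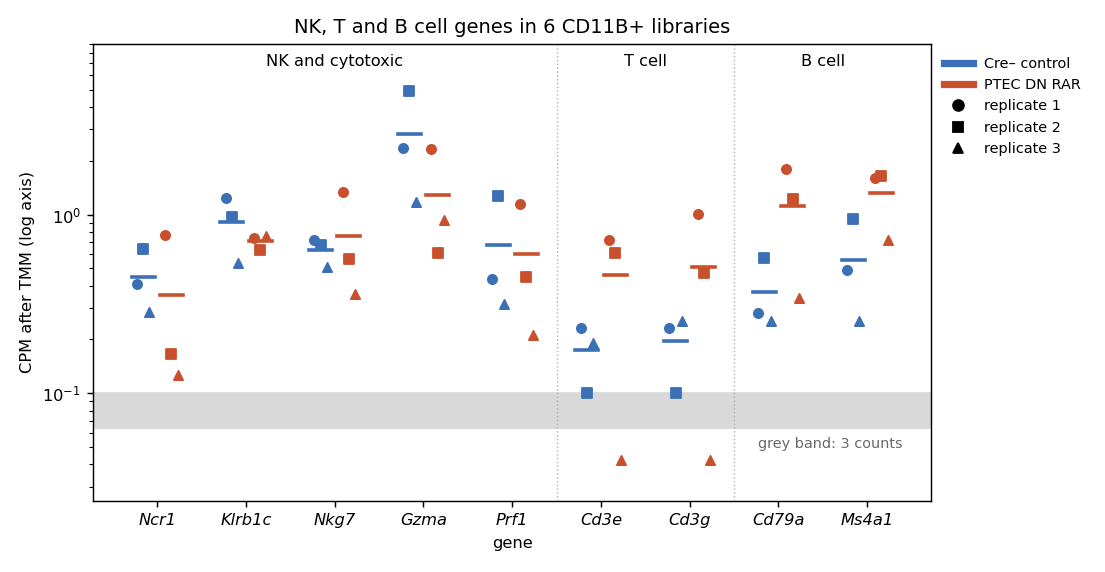
CPM after TMM scaling (log axis) of the 9 genes in the 6 libraries, with blue for Cre- control and red for PTEC DN RAR, symbols for the replicate number, bars for the mean of 3 libraries and a grey band where 3 reads lie. The genotypes overlap for every gene, and the 2 T cell genes of PTEC DN RAR replicate 3 are the points below the band.

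The T cell members were the least abundant of the 9 genes and had the widest spread. Cd3e and Cd3g encode the epsilon and gamma chains of CD3 and are neighbours on chromosome 9, at chr9:44998740-45009627 and chr9:44969572-44980431. Cd3e was at 0.231, 0.101 and 0.190 CPM in Cre- controls, from 9, 3 and 6 reads, and at 0.717, 0.613 and 0.0424 CPM in PTEC DN RAR mice, from 30, 26 and 2 reads. PTEC DN RAR replicates 1 and 2 were thus above all controls and replicate 3 was below them. The exact Poisson interval of replicate 1 (0.484 to 1.02 CPM) did not meet that of replicate 3 (0.00513 to 0.153 CPM), so these libraries of the same genotype differed by more than counting error. Such intervals cover counting error only, since the reads carry no molecular identifiers and may be copies of 1 molecule. Cd3e did not pass the filter on low counts and was not tested with the rest. In a fit without the filter its log2 fold change was 1.31 (SE 0.72, edgeR adjusted p = 0.222), and the exact permutation test on log2 CPM, two-sided, gave p = 0.5, where 3 mice against 3 cannot go below 0.1.

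Cd3g followed the same order at both ends, with 0.231, 0.101 and 0.253 CPM in Cre- controls and 1.00, 0.471 and 0.0424 CPM in PTEC DN RAR mice. Its highest library was 23.7 times its lowest, both of them PTEC DN RAR, which was the widest spread of the 9 genes. The log2 fold change was 1.33 (SE 0.87, edgeR adjusted p = 0.25, interval -0.65 to 3.30). Without PTEC DN RAR replicate 3 both T cell members passed, Cd3e at 1.84 (SE 0.45, adjusted p = 0.0177) and Cd3g at 1.84 (SE 0.53, adjusted p = 0.0311), where 34.1% of all genes passed. In that fit Cd3e passed the filter only through PTEC DN RAR replicates 1 and 2, where it was high, since the controls had 9, 3 and 6 reads. Its call there is therefore no support for a difference. Without PTEC DN RAR replicate 1, Cd3g was at 0.35 (adjusted p = 0.790). The summed level of the 2 genes was 0.461, 0.201 and 0.443 CPM in Cre- controls and 1.72, 1.08 and 0.0848 CPM in PTEC DN RAR mice.

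The B cell members came nearest to the threshold. Cd79a encodes the immunoglobulin alpha chain of the B cell receptor complex and lies at chr7:24897381-24902197. It was at 0.282, 0.570 and 0.253 CPM in Cre- controls, from 11, 17 and 8 reads, and at 1.79, 1.23 and 0.339 CPM in PTEC DN RAR mice, from 75, 52 and 16 reads. PTEC DN RAR replicates 1 and 2 were above all controls, and replicate 3 fell between control replicates 1 and 2. Its log2 fold change was 1.60 (SE 0.61, edgeR adjusted p = 0.0644, interval 0.21 to 3.00). By adjusted p, Cd79a passed with DESeq2 (0.0417), without the low-count filter (0.0340), with pan-leukocyte scaling (0.0305) and without PTEC DN RAR replicate 3 (0.0108), and over all alternatives its adjusted p ran up to 0.970. Of all genes, 24.9% passed without the filter and 37.0% with that scaling.

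Ms4a1 encodes CD20, a membrane protein of B cells, and lies at chr19:11249675-11266241. Its level was 0.487, 0.939 and 0.253 CPM in Cre- controls and 1.60, 1.65 and 0.721 CPM in PTEC DN RAR mice. Replicate 3 was again the lowest of the PTEC DN RAR libraries and lay below control replicate 2. The log2 fold change was 1.24 (SE 0.50, edgeR adjusted p = 0.0757, interval 0.11 to 2.38). It passed with pan-leukocyte scaling (adjusted p = 0.0334), without Cre- control replicate 2 (1.76, adjusted p = 0.0349, where 32.1% of all genes passed) and without PTEC DN RAR replicate 3 (1.5, adjusted p = 0.0404). For Cd79a and Ms4a1 alike, the exact two-sided permutation test on log2 CPM gave p = 0.2.

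Summed, the 2 B cell members stood at 0.769, 1.51 and 0.507 CPM in Cre- controls and at 3.39, 2.88 and 1.06 CPM in PTEC DN RAR mice, a ratio of means of 2.63. Per 10000 counts of the 26 pan-leukocyte genes the ratios were 3.03 for the B cell members, 2.90 for the T cell members and 0.783 for the NK and cytotoxic members. In CPM, the T cell ratio was 2.61, and it was 3.80 without PTEC DN RAR replicate 3 and 1.59 without replicate 1. Pan-leukocyte scaling moved the median of all genes, as a log2 fold change, from 0.04 to 0.26, so fold changes with that scaling are to be read against this shift. PTEC DN RAR replicate 1 held the highest value of 5 of the 9 genes, and replicate 3 held the lowest value of 5. PTEC DN RAR replicate 3 had the most gene counts of the 6 libraries, the highest mitochondrial share (12.1%), the lowest Itgam level (980.3 CPM) and the lowest sum of pan-leukocyte genes (13003 CPM, against 14429 to 17105 CPM in the others). Its proximal tubule sum, 4019 CPM, lay between those of the other two PTEC DN RAR libraries, while its sums of thick ascending limb and distal tubule markers (9456 CPM) and of plasmacytoid dendritic cell markers (1013 CPM) were the highest of the 6 libraries. The part of these in its low T and B cell values was not tested.

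**Figure D2:**
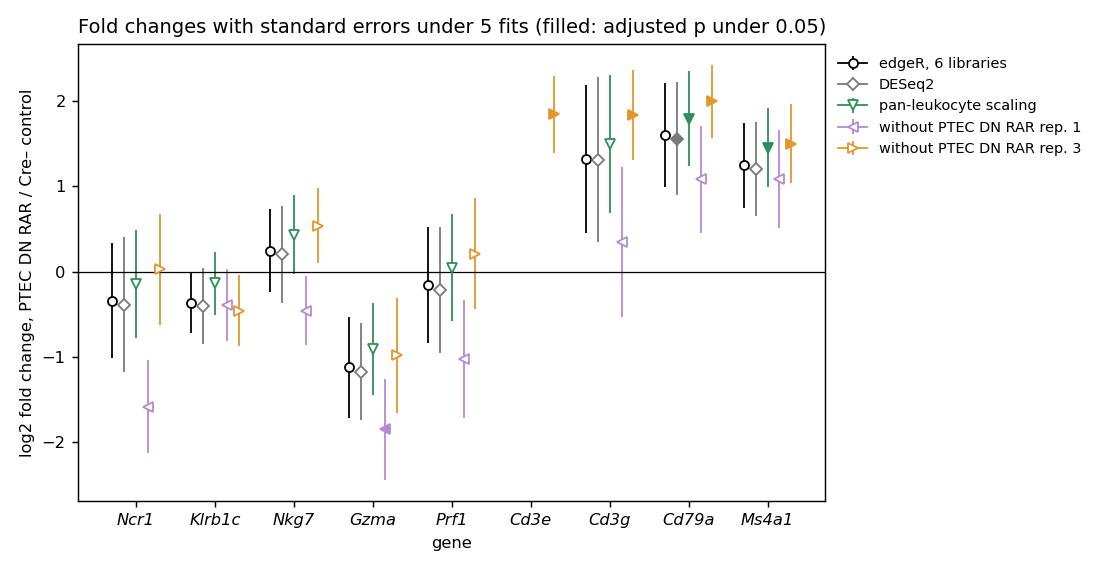
log2 fold change of PTEC DN RAR over Cre- control for the 9 genes, with bars of 1 SE, from edgeR on 6 libraries, DESeq2, edgeR with pan-leukocyte scaling and edgeR without PTEC DN RAR replicate 1 or 3; filled symbols have an adjusted p under 0.05. The filled symbols are Cd79a with DESeq2, Cd79a and Ms4a1 with pan-leukocyte scaling, Gzma without replicate 1, and Cd3e, Cd3g, Cd79a and Ms4a1 without replicate 3, the only fit of the 5 plotted in which Cd3e passed the filter and has a value. Cd3e passed the filter there only through PTEC DN RAR replicates 1 and 2, where it was high.

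Levels of different genes were compared per kilobase of annotated exon. On that scale, over all 6 libraries, the order of the means was Gzma at 2.04, Nkg7 at 0.758, Cd79a at 0.510, Klrb1c at 0.275, Ncr1 at 0.259, Prf1 at 0.247, Ms4a1 at 0.152, Cd3g at 0.107 and Cd3e at 0.0773 CPM per kilobase. Neighbours in this order differed by less than the spread of either gene over the libraries, which ran from 2.28-fold for Klrb1c to 23.7-fold for Cd3g between the lowest and the highest library. Many genes of the same lineages were as low, with means under 1 CPM for 21 of the 30 genes of the NK list, 29 of the 34 of the T cell list and 14 of the 30 of the B cell list described later. The most abundant genes of these lists lay far above the members. Cd79b, the partner of Cd79a in the B cell receptor complex, was 51.6 to 101 times as high per kilobase as Cd79a in the Cre- control libraries and 24.9 to 95.4 times in the PTEC DN RAR libraries. Ighm, the constant region of immunoglobulin M, was 635 to 1311 and 307 to 1070 times as high as Cd79a. Cd4, the coreceptor of helper T cells that plasmacytoid dendritic cells and some macrophages also carry, was 182 to 698 and 133 to 2563 times as high as Cd3e, the top value being that of PTEC DN RAR replicate 3, where Cd3e had 2 reads. Klrb1b, an inhibitory receptor beside Klrb1c in the NK gene complex, was 18.4 to 38.9 and 34.7 to 91.6 times as high as Klrb1c. Sh2d1b1, an adaptor for SLAM receptors, was 45.6 to 78 and 53.2 to 230 times as high as Ncr1. These ratios carry the counting error of the members, since the denominators are small, and the ranges of the genotypes overlapped for each pair.

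**Figure D3:**
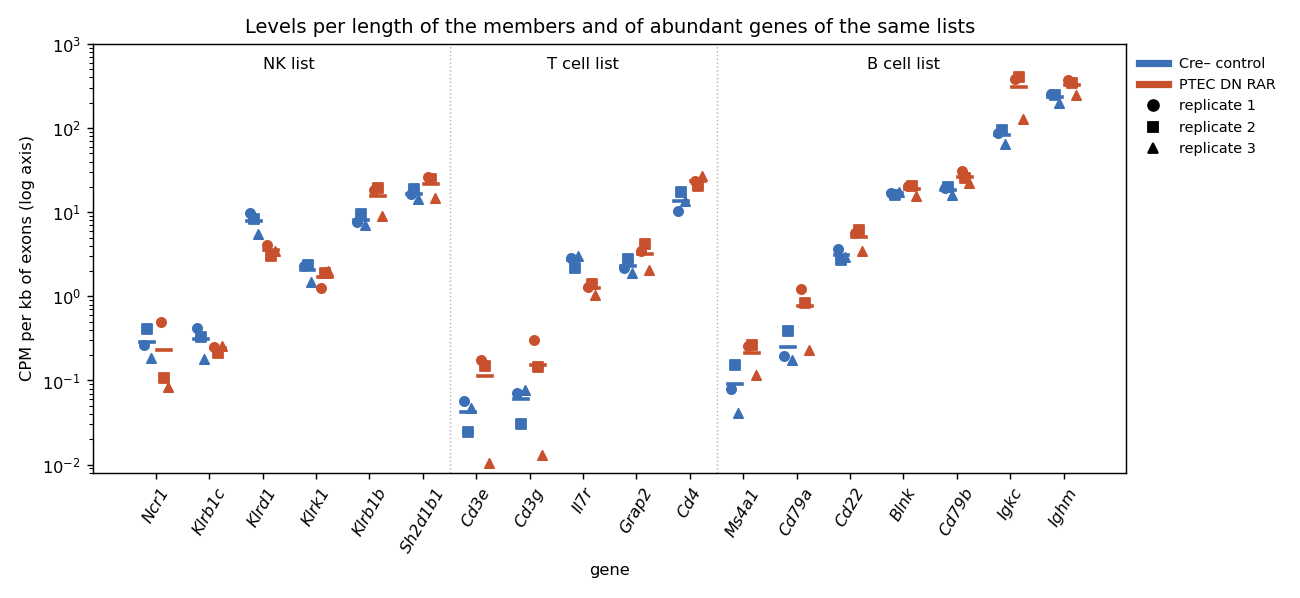
CPM per kilobase of exons (log axis) of 6 members and of other genes of the NK, T cell and B cell lists, with colours and symbols for genotype and replicate and bars for the mean of 3 libraries. Ncr1, Klrb1c, Cd3e, Cd3g, Ms4a1 and Cd79a lie below the other genes of their lists shown.

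The genes were then read beside lists of their lineages, drawn up with earlier results of these data known. Of 30 NK receptors and regulators, 17 passed the filter, 2 passed the test as lower and 2 as higher, and their median log2 fold change was 0.13, with a median of 0.04 for all genes. Of all genes, 17.1% were called lower and 23.6% higher, and the counts of the lists that follow are to be read against these shares. With a mouse left out, 1 to 2 of the list were lower and 1 to 4 higher, the 4 being without PTEC DN RAR replicate 3. Klrd1, the CD94 chain that pairs with NKG2 receptors, was lower, at 12.6, 10.7 and 7.03 CPM in Cre- controls and 5.28, 3.84 and 4.45 CPM in PTEC DN RAR mice (log2 fold change -1.16, SE 0.23, adjusted p = 0.00496). Klri2, a lectin-like receptor of the same complex, was lower as well (-0.89, adjusted p = 0.0313). S1pr5, the sphingosine phosphate receptor by which NK cells leave tissue and which some monocytes also carry, was higher, at 2.46, 4.46 and 4.34 CPM against 11.3, 9.47 and 7.01 CPM (1.31, SE 0.26, adjusted p = 0.00542). Klrb1b was higher (0.96, adjusted p = 0.0212), although its PTEC DN RAR replicate 3, at 19.9 CPM, lay below the top control at 21.1 CPM. The 2 other abundant genes of the list, Sh2d1b1 (0.40, adjusted p = 0.149) and Cd244a, the 2B4 receptor (0.13, adjusted p = 0.569), did not pass. Eomes and the Ly49 genes Klra1, Klra4, Klra7, Klra8 and Klra9 did not pass the filter, with at most 11 reads in any library. The Ly49 genes are close copies, so reads that align to several of them were left out of the counts.

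Of 14 cytotoxic granule and effector genes, 8 passed the filter, 1 was higher by edgeR and none was lower by edgeR, DESeq2 or limma-voom, with a median of 0.04. At an unadjusted edgeR p under 0.05 the number lower was also 0. Without PTEC DN RAR replicate 1, 2 genes of the list were called lower, and without the filter 1 was. The gene that rose was Ccl5, a chemokine made by lymphocytes and also by macrophages, at 13.7, 14.1 and 9.79 CPM in Cre- controls and 27.2, 29.2 and 21.3 CPM in PTEC DN RAR mice (1.05, SE 0.17, adjusted p = 0.00239). Cst7, a cysteine protease inhibitor, was at -0.27 (adjusted p = 0.35). Ifng was at or under 2 reads in every library.

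Of 34 T cell genes, 20 passed the filter, 2 were lower and 5 higher, with a median of 0.64. Over all genes tested, 17.1% were lower and 23.6% higher. The antigen receptor constant gene Trac was higher, at 0.205, 0.168 and 0.317 CPM in Cre- controls and 1.55, 1.06 and 0.657 CPM in PTEC DN RAR mice (2.23, SE 0.44, adjusted p = 0.00515). Unlike the CD3 genes, Trac was above all controls in PTEC DN RAR replicate 3 as well. Also higher were Bcl11b, a T lineage transcription factor (2.36, adjusted p = 0.00980), Lef1, a factor of the Wnt pathway (1.59, adjusted p = 0.0221), and Cd5, an inhibitory receptor of T and B-1 cells (1.35, adjusted p = 0.0258). The level of these 3 genes was at most 1.51 CPM in any library. Trac (8, 5 and 10 reads in Cre- controls), Bcl11b (6, 2 and 12) and Lef1 (11, 4 and 3) needed the PTEC DN RAR libraries, where they were high, to pass the filter. Their calls therefore rest in part on that selection. Cd4 was higher, at 41.6, 69.4 and 54.6 CPM against 94.0, 82.5 and 107 CPM (0.78, SE 0.18, adjusted p = 0.00926). Cd28, the costimulatory receptor, was lower (-1.77, adjusted p = 0.00217), as was Il7r, the interleukin-7 receptor (-1.11, adjusted p = 0.00204). Per kilobase, Il7r was 50.1 to 88.7 times as high as Cd3e in Cre- control libraries and 7.26 to 99.3 times in PTEC DN RAR libraries. Which cells gave the reads of Cd28 and Il7r was not tested. Grap2, an adaptor of the T cell receptor, was at 0.48 (adjusted p = 0.157). Of the defining genes, Cd3d, Trbc1, Cd8b1 and Zap70 did not pass the filter. Without PTEC DN RAR replicate 3, 9 genes of the list were called higher, and with the filter of 10 counts in every library 1 was. Over all genes, these fits called 2997 and 3411 higher. The filter of 10 counts removed Trac, Bcl11b, Lef1 and Cd5, so they could not be called with it.

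Among genes of group 2 innate lymphoid cells, those called higher were Gata3, a lineage factor (1.23, adjusted p = 0.0274), Rora (0.59, adjusted p = 0.00460), Il1rl1, the interleukin-33 receptor (0.58, adjusted p = 0.0394), and Il17rb, the interleukin-25 receptor (1.49, adjusted p = 0.00966). Without Cre- control replicate 3, 2 genes of this kind were called higher in place of 4. Areg, amphiregulin, was lower (-1.84, adjusted p = 0.00174). The defining cytokines were at the floor, Il5 with no read in any library and Il13 with 1 read in 1 library. Which cells gave the reads of the higher genes was not tested. Thick ascending limb and distal tubule markers were higher too, with sums of 1329 to 1783 CPM in Cre- controls and 5011 to 9456 CPM in PTEC DN RAR mice. Icos, counted in the T cell list, also belongs here.

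Of 30 B cell genes, 24 passed the filter, none was lower and 9 were higher by edgeR, with a median of 0.65. The shares over all genes tested were 17.1% lower and 23.6% higher. Bank1 and Bach2 were lower at an unadjusted edgeR p under 0.05, and after adjustment DESeq2 called 2 genes of the list lower and limma-voom 1. Ighm was the most abundant, at 478, 469 and 378 CPM in Cre- controls and 711, 644 and 469 CPM in PTEC DN RAR mice (0.46, SE 0.16, adjusted p = 0.0496), and its genotypes overlapped. Igkc, the kappa light chain, was at 46.1, 50.8 and 34.5 CPM against 205, 218 and 68.2 CPM (1.90, SE 0.38, adjusted p = 0.00524). The kappa chain therefore had the same order of PTEC DN RAR libraries at the bottom as Cd79a and Ms4a1, replicate 3 being the lowest, but all 3 were above the controls. Igkc per kilobase was 0.351 times Ighm in Cre- controls and 0.953 times in PTEC DN RAR mice.

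Cd79b was higher, at 28.1, 28.9 and 22.8 CPM against 43.8, 36.9 and 31.8 CPM (0.49, SE 0.14, adjusted p = 0.0228). Ebf1, the factor that commits cells to the B lineage and is also active in stromal cells, was higher (1.25, adjusted p = 0.00406), and so were Ighd, the constant region of immunoglobulin D (1.18, adjusted p = 0.0165), and Iglc1, a lambda light chain (2.25, adjusted p = 0.0142). The lambda genes Iglc1, Iglc2 and Iglc3 are related copies, and their counts are uncertain where reads align to more than 1 of them. The 3 other genes called higher, Cd22, Iglc2 and Pou2af1, are outside the rule for named genes because their genotypes overlap, and are given here for the count. Cd72, a coreceptor that macrophages also carry, was at 0.47 (adjusted p = 0.1), and Blnk, an adaptor of the B cell receptor, at 0.18 (adjusted p = 0.234). In place of 9, the fit without PTEC DN RAR replicate 3 called 16 genes of the list higher, that without replicate 1 called 2, that without replicate 2 called 3 and that without Cre- control replicate 3 called 2. In the same order, these fits called 2997, 3035, 3157 and 2433 of all genes higher. Of the list, 5 were called higher with limma-voom, 14 with pan-leukocyte scaling and 15 without the filter. Over all genes, pan-leukocyte scaling called 4998 higher in place of 3640, and the fit without the filter called 3571 of 25387.

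Of 8 plasma cell genes, 7 passed the filter, 2 were lower and 1 higher, with a median of -0.12. With pan-leukocyte scaling 0 were called lower and 2 higher. Jchain, the joining chain of secreted immunoglobulin, was higher, at 11.3, 13.3 and 10.4 CPM in Cre- controls and 35.6, 40.6 and 17.1 CPM in PTEC DN RAR mice (1.41, SE 0.28, adjusted p = 0.00529). Sdc1, syndecan 1, which epithelium and macrophages also make, was lower (-0.59, adjusted p = 0.0166), as was Prdm1, the factor of plasma cell differentiation (-0.38, adjusted p = 0.0102). Xbp1, a factor of the unfolded protein response, was at -0.12 (adjusted p = 0.337), and Irf4, a factor of plasma cells and of some macrophages, at -0.09 (adjusted p = 0.595).

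**Figure D4:**
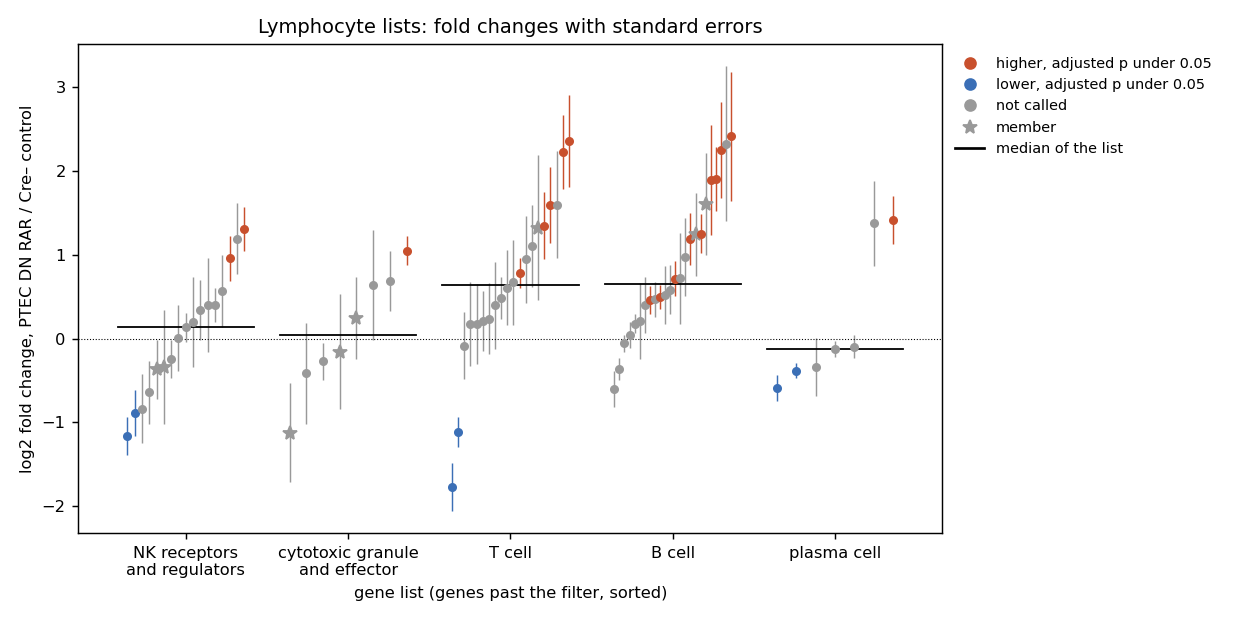
log2 fold change of PTEC DN RAR over Cre- control with bars of 1 SE for the genes of 5 lymphocyte lists that passed the filter, sorted within each list, with stars for the members, red for higher and blue for lower at adjusted p under 0.05, grey for the rest and a black line at the median. The B cell list has 9 red and no blue points, the T cell list 5 and 2, and all stars are grey. Over all genes tested, 23.6% were higher and 17.1% lower.

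The adaptors and kinases that lymphocyte receptors share with myeloid cells were abundant, with Tyrobp, the DAP12 adaptor of activating NK receptors, at 895 CPM and Fcer1g, the common gamma chain of Fc receptors, at 825 CPM over all libraries. Of 10 such genes, all passed the filter, 4 were lower and none higher, with a median of -0.26. With pan-leukocyte scaling 2 were called lower and 2 higher, and 2 were called lower without Cre- control replicate 3, PTEC DN RAR replicate 1 or PTEC DN RAR replicate 3. The 4 were Btk (-0.70, adjusted p = 0.000486), the Tec kinase of B and myeloid cells, Itgam, and the kinases Lyn (-0.32, adjusted p = 0.0326) and Syk (-0.26, adjusted p = 0.0437). Tyrobp (-0.26, adjusted p = 0.184) and Fcer1g (-0.03, adjusted p = 0.854) did not pass.

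Of 17 ligands and growth factors for lymphocytes, 15 passed the filter, 3 were lower and 4 higher, with a median of -0.10. Tnfsf13b, the B cell survival factor BAFF, was higher, at 9.99, 14.7 and 11.4 CPM in Cre- controls and 35.6, 39.3 and 20.0 CPM in PTEC DN RAR mice (1.40, SE 0.25, adjusted p = 0.00333). Its lowest PTEC DN RAR library was replicate 3, as for Cd79a, Ms4a1 and Igkc. Cxcl12, a chemokine that holds B cell precursors and many other cells (1.54, adjusted p = 0.000354), Cxcl9, which draws activated T and NK cells (0.88, adjusted p = 0.00670), and Il15ra, which presents interleukin-15 to NK cells (0.44, adjusted p = 0.0312), were higher. Raet1e, a ligand of the NKG2D receptor (-2.06, adjusted p = 0.0246), Cd1d1, which presents lipids to NKT cells (-0.81, adjusted p = 0.00871), and Il18, a cytokine that drives interferon in NK cells (-0.74, adjusted p = 0.00237), were lower. Cxcl10 (-0.77, adjusted p = 0.0586) and Clec2d (-0.07, adjusted p = 0.827), the remaining abundant genes of the list, did not pass.

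Likeness of pattern was measured as Pearson's r over the 6 libraries between the mean log2 CPM of a lineage's members and that of each of 13020 other genes with a mean of at least 1 CPM. It is a description over 6 points that share their depth and genotype. The gene most like the NK and cytotoxic members was Gzmb, granzyme B, with r = 0.969, at 1.18, 1.74 and 0.792 CPM in Cre- controls and 1.91, 0.542 and 0.339 CPM in PTEC DN RAR mice. After it came Pdzd11, Ddx56, Fam220a and Noa1, with r from 0.918 to 0.955, and 8 genes had r above 0.9. The genes most like the T cell members were Gpx7, Tifab, Itgb5, Rtcb and Hsd11b1, with r from 0.969 to 0.987, and 47 genes had r above 0.9. Those most like the B cell members were Efemp2, Slamf9, Fndc7, Gpr137b-ps and Lhfp, with r from 0.980 to 0.990, and 204 genes had r above 0.9. No gene of the T cell or B cell lists was among the 5 nearest to its own lineage, which for T cells the minimum of 1 CPM largely fixed in advance. Of the lists, 29 of 34 T cell genes and 14 of 30 B cell genes, members included, had means under 1 CPM and could not appear.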

How the data were processed

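CD11B+ kidney cells of 6 mice, 3 Cre- control and 3 PTEC DN RAR, were sequenced as 1 polyA library per mouse. The authors deposited raw counts of reads per Ensembl gene, without normalization. The submitters' processing notes name STAR 2.5.0a, HTSeq 0.6.1, edgeR, limma and GRCm38. Whether reads were counted by strand is not given in the sources used here. Reads aligned to more than 1 place, 42.9% to 47.8% of alignments, were left out of the deposited gene counts, which lowers genes with close copies, and the summary lines that hold them were kept out of library sizes and tests. Of 46612 gene lines, 9 repeats were collapsed. Positions and exon lengths came from GENCODE M21, which held 46091 of the 46603 genes. Libraries of the same genotype differed beyond sampling noise (chi-square per degree of freedom at least 27.1).

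Low genes were removed by filterByExpr. Libraries were scaled by TMM, and the quasi-likelihood test of edgeR 4.0.16 (glmQLFit, glmQLFTest; R 4.3.3) was run on 15440 genes, whose p-values were adjusted by the Benjamini-Hochberg method. The SE is the log2 fold change divided by the square root of F, and the 95% intervals of fold changes use the t distribution with the degrees of freedom of that test. The prior count for mean log2 CPM was 2. On counts simulated for 15440 genes of this comparison, 62 of 90 genes changed by 1 on the log2 scale and 104 of 110 changed by 2 were recovered, with 16 false calls. The changed genes were drawn at random whatever their level, so this recovery does not give that of genes as low as the members. Alternatives used DESeq2 1.42.0, limma 3.58.1 (voom), other scalings and filters, the replicate block, a proximal tubule covariate and each mouse left out. Tables and exact tests were made in Python 3.11 (scipy 1.17.1, pandas 2.3.3, numpy 2.4.6) and figures with matplotlib 3.10.9.

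Members and gene lists were chosen with earlier results of these data known. Named were all 9 members, listed genes that passed and did not overlap between genotypes (up to 8 a list), the 3 most abundant of each list, the 5 most alike per lineage, and Ptprc, Itgam and Rara. Defining genes of a list that were not detected, and genes completing a count, were named after their values were seen. A listed gene that the rule covers is not reported here. Nothing says whether the mice came from separate litters, so p-values measure the spread between these animals.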

Additional observations from a re-analysis of the deposited data

How the results depend on the processing

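Members had 2 to 146 reads per value, which limits their precision. Of 116 fold changes of the 8 tested members in other settings (Cd3e, which had no main value, is left out), 96 kept their direction and side of the threshold, 10 came to pass and 10 changed sign. Members called higher were 0 in the main test, 1 with DESeq2, 2 with pan-leukocyte scaling, 1 without the filter, and 0 to 4 with each mouse left out, the 4 without PTEC DN RAR replicate 3. Of these 4, Cd3e passed the filter of that fit only through the libraries where it was high. Members called lower were 0 to 1 with a mouse left out, the 1 being Gzma. Replicate numbers did not pair the mice (correlations of deviations -0.01, 0.21 and 0.03), and the replicate block called 2606 genes lower and 3612 higher, with 1 member higher (Ms4a1, adjusted p = 0.0245) and 1 NK receptor gene lower in place of 2. Signs changed with pan-leukocyte scaling for Prf1 (0.045), where the median of all genes rose from 0.04 to 0.26, and with the proximal tubule covariate for Ncr1 (4.56), Klrb1c (0.42), Gzma (4.22) and Prf1 (4.28). With a mouse left out Ncr1 ran from -1.58 to 0.026, Nkg7 from -0.46 to 0.54 and Prf1 from -1.02 to 0.61.

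The proximal tubule covariate, which separates the genotypes, left 1 gene lower and 0 higher of all genes tested, and 0 lower and 0 higher in the NK, T cell and B cell lists. Genes called lower were 708 with pan-leukocyte scaling against 2636, and those called higher 4998 against 3640. NK receptors and regulators had 1 lower and 4 higher with that scaling, and 1 to 2 lower and 1 to 4 higher with a mouse left out. T cell genes had 1 higher with 10 counts in every library, and 3 to 9 with a mouse left out. B cell genes called lower, 0 in the main test, were 2 with DESeq2 and with its size factors, 1 with limma-voom and without the filter, and 0 to 1 with a mouse left out. Those called higher were 9, and 5 with limma-voom, 14 with pan-leukocyte scaling, 15 without the filter and 2 to 16 with a mouse left out. Over all genes, 2433 to 3699 were called higher with a mouse left out. The causes were not tested. The filter of 10 counts in every library removed Ncr1, Cd3e, Cd3g, Cd79a and Ms4a1, so no value could be given for them.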
